A study of Mus musculus with 2 samples.

Results

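Tcf7, Lef1, Il7r, Dapl1 and Izumo1r are 5 genes used to describe naive and memory T cells, chosen by name, and all 5 were found among the 2000 genes of the deposited table. They were followed in single-cell RNA profiles of whole mouse pancreatic tumors, taken on day 14 after orthotopic implantation of MT4, a KPC organoid line of pancreatic cancer. The library labelled Ahr cKO, called the cKO library here, came from pooled tumors of 3 C57/BL6 mice with floxed Ahr alleles and LysM-Cre. The Ahr fl/fl library came from pooled tumors of 3 C57/BL6 mice with the same floxed alleles and no stated Cre. Ahr encodes the aryl hydrocarbon receptor, and LysM-Cre drives recombination mostly in the myeloid lineage, so T cells carry the floxed gene in both groups and are not the main target of the deletion. Live cells were sorted by DAPI and captured with the 10X system. The cKO library held 4577 cells and the fl/fl library 5196 cells. With 1 library per genotype there is no replicate and no test between genotypes, and every difference between the libraries below describes these libraries only.

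TCF-1, the product of Tcf7, and its relative LEF1 are transcription factors that bind the same DNA letters, partner with beta-catenin and maintain naive and memory T cells. Their genes are known to be switched down as CD8 T cells become effectors. Il7r encodes the alpha chain of the interleukin-7 receptor, which gives survival signals to naive and memory T cells and to innate lymphoid cells. Dapl1 encodes a small death-associated-protein-like protein whose transcript is found in mouse naive CD8 T cells. Izumo1r encodes folate receptor 4, called Juno on the egg, which marks regulatory and anergic CD4 T cells in mice.

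On the GRCm38.p6 build Tcf7 lies on chromosome 11 (chr11:52246527-52283383), Lef1 on chromosome 3 (chr3:131110297-131224357), Il7r on chromosome 15 (chr15:9506159-9529941), Dapl1 on chromosome 2 (chr2:59484653-59505020) and Izumo1r on chromosome 9 (chr9:14885814-14903951). RefSeq promoter windows of 300 bases, from 250 bases before a transcript start to 50 after it, were found for all 5 genes. They were searched on both strands for the letters bound by TCF/LEF factors (CTTTGAA or CTTTGAT), FOXO factors (GTAAACA), RUNX factors (TGTGGT) and ETS factors (AGGAAG). No window of the 5 genes held the TCF/LEF letters, which occurred in 8.65% of the 32851 RefSeq windows of the mouse. The FOXO letters, held by 3.65% of all windows, occurred in 1 of the 2 Tcf7 windows and in the Dapl1 window. The RUNX letters, held by 16.8% of all windows, occurred for Il7r and Izumo1r, and the ETS letters, held by 35.4%, for Il7r and in 1 of the 4 Lef1 windows. Shown is 1 window with a match for each of Tcf7, Il7r and Dapl1, written 5′ to 3′ along the gene's strand, with every matched motif in capitals. The other Tcf7 window, which held no match, and the windows of Lef1 and Izumo1r are not shown. Whether the matches go with the genes being found in the same cells was not tested. A match is a match of letters only, and no binding was measured.
Tcf7, start inside the gene (chr11:52282546-52282845, minus strand): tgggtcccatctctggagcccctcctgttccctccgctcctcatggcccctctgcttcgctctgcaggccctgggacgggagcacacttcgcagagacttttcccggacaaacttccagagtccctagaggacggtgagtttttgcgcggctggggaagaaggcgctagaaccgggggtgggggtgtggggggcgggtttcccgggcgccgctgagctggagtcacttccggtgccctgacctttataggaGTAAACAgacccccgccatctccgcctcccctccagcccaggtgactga
Il7r (chr15:9529827-9530126, minus strand): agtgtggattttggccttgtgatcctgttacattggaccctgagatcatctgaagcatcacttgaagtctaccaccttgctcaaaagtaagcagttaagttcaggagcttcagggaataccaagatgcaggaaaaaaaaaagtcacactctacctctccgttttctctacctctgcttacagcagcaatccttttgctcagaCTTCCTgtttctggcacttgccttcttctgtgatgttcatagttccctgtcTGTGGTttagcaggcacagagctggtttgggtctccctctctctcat
Dapl1 (chr2:59484403-59484702, plus strand): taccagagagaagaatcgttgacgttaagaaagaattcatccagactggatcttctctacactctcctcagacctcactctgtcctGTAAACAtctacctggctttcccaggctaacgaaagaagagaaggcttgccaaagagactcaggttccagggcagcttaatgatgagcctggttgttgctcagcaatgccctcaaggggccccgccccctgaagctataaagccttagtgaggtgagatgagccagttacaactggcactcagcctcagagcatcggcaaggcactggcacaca
The matches are the FOXO letters for Tcf7 and Dapl1, and for Il7r the ETS letters on the opposite strand followed by the RUNX letters.

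The values are scaled scores per gene and cell, with the highest value at 10, and they have no true zero, so levels are given as means with the SD over cells and no fold is given. The lowest value that fl/fl cells shared for a gene was taken as its zero level, and a cell was counted as having the gene if its value lay above that level. Over all 5196 fl/fl cells Tcf7 lay above zero in 5.93%, Lef1 in 6.02%, Il7r in 9.39%, Dapl1 in 1.81% and Izumo1r in 3.02%. In the cKO library 42.9% of cells lay exactly at the fl/fl zero level of Tcf7 and 21.6% below it, so no share above zero could be given for the cKO library, and shares are those of fl/fl cells unless stated. The median number of genes above zero was 108 per fl/fl cell, and the depth in molecules is unknown. Ahr itself averaged 0.24 ± 1.09 in Macrophage-like cells of the cKO library and 0.08 ± 1.21 in those of the fl/fl library, a scaled difference of 0.16. The difference was 0.03 in Monocyte-like, 0.01 in Neutrophil-like and -0.09 in T cell-like cells, where Ahr averaged -0.10 ± 0.71 in cKO and -0.02 ± 1.09 in fl/fl cells, so Ahr was not lower in the myeloid classes of the cKO library. This does not check the genotype labels, because whether the counted end of the transcript lies outside the deleted part is not given in the sources used here.

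Some cell barcodes occurred in both libraries. The same barcode was found in both libraries for 656 cells of each, which are 14.3% of the cKO cells and 12.6% of the fl/fl cells. The scaled profiles of 2 cells with the same barcode had a median correlation of 0.431 over genes, against 0.0712 for cells with different barcodes, and the source of the sharing was not tested. In cluster 0, led by Vim, Atf3, Cd14 and Ccl2, 330 of 332 cKO cells and 325 of 345 fl/fl cells had such a barcode. In cluster 1, the Monocyte-like class, 198 of 297 cKO and 202 of 317 fl/fl cells had one. The Ahr difference given above for Monocyte-like cells includes them and was not computed without them. Few T cell-like cells had a shared barcode, 9 in each library, and leaving these out left the share above zero at 34.4% for Tcf7, 33.5% for Lef1, 32.0% for Il7r, 13.6% for Dapl1 and 16.8% for Izumo1r.

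All 5 genes were found in T cells more often than in any other named cell class, and 86.2% of the fl/fl cells with Dapl1 were T cell-like. Clusters were made without the 5 genes and named from marker lists. Clusters 16 and 18 were T cell-like, and at least 3 of the 13 measured T cell markers lay above zero in 97.6% and 93.8% of their fl/fl cells. Of the 591 fl/fl T cell-like cells, 34.0% had Tcf7 (exact 95% interval 30.2% to 38.0%), 33.2% had Lef1 (29.4% to 37.1%), 31.8% had Il7r (28.1% to 35.7%), 16.6% had Izumo1r (13.7% to 19.8%) and 13.7% had Dapl1 (11.0% to 16.7%). The intervals of Tcf7, Lef1 and Il7r overlapped each other, as did those of Izumo1r and Dapl1, while the first 3 genes lay above the other 2. These intervals, here and elsewhere, are Clopper-Pearson intervals and cover counting error only. Among all fl/fl cells with a gene, T cell-like cells made up 81 of the 94 Dapl1 cells, 65.3% of the 308 Tcf7 cells, 62.6% of the 313 Lef1 cells, 62.4% of the 157 Izumo1r cells and 38.5% of the 488 Il7r cells.

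**Figure D1:**
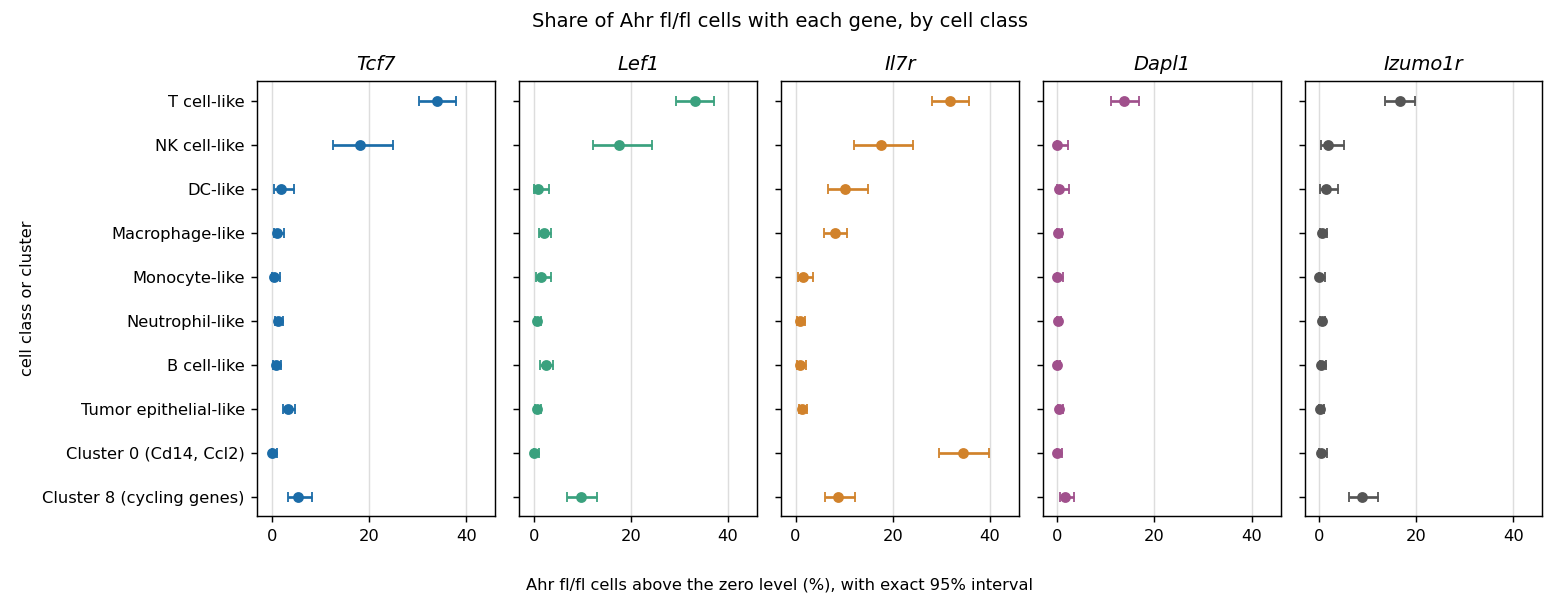
Share of Ahr fl/fl cells above the zero level of each gene (x axis, percent) in 8 named cell classes and clusters 0 and 8 (y axis), with points for the share and bars for the exact 95% interval. T cell-like cells stand highest for Tcf7, Lef1, Dapl1 and Izumo1r, while Il7r reaches 34.5% in cluster 0 as well as 31.8% in T cell-like cells.

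Tcf7, Lef1 and Il7r were also found in the NK cell-like cluster. In the 165 NK cell-like cells of the fl/fl library 18.2% had Tcf7, 17.6% had Lef1 and 17.6% had Il7r. Dapl1 was found in 0 of 165, which allows a share of up to 1.82% (3 cells over the number of cells, the limit given for every count of 0), and Izumo1r in 1.82%. That cluster was not pure in its markers: 47.9% of its cells held at least 3 T cell markers. Among its 29 Il7r cells 89.7% did, against 39.0% of its 136 cells without Il7r, with medians of 131 and 100 genes above zero. The part of T cells in these shares was not tested. Cells that should lack these genes gave the background: in Neutrophil-like cells, with a median of 84 genes above zero against 101 in T cell-like cells, the shares ran from 0.129% for Dapl1 to 1.29% for Tcf7. Lef1 in B cell-like cells (2.44%, 1.37% to 3.98%) and in Macrophage-like cells (2.02%, 1.01% to 3.58%) lay above the 0.644% of Neutrophil-like cells (0.210% to 1.50%). The intervals of both classes overlapped that of Neutrophil-like cells, and Macrophage-like cells had a median of 139 genes above zero. The B cell-like class pooled clusters 5 and 13, with Lef1 in 8 of 535 and 7 of 81 fl/fl cells. The interval of cluster 13 began at 3.55%, above that of Neutrophil-like cells, while that of cluster 5 overlapped it. Lef1 lay at least 1 above zero in 6.17% of cluster 13 cells (2.03% to 13.8%), against 0.515% of Neutrophil-like cells (0.141% to 1.31%). Cluster 13 had a median of 98 genes above zero, and the part of depth was not tested. Tcf7 lay above zero in 3.32% of Tumor epithelial-like cells, which had a median of 147 genes, but it lay at least 1 above zero in only 1.02% of them, against 1.03% of Neutrophil-like cells. In cluster 22, which was led by the B cell precursor genes Vpreb3, Vpreb1, Dntt and Igll1, all 4 fl/fl cells had Lef1 and 2 had Il7r, and the 10 cKO cells averaged 3.04 ± 2.51 for Lef1.

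Il7r was found in several groups of myeloid cells at higher shares than the other 4 genes. It lay above zero in 34.5% of the 345 fl/fl cells of cluster 0 (29.5% to 39.8%), in 10.2% of DC-like cells (6.59% to 14.9%) and in 8.07% of Macrophage-like cells (5.93% to 10.7%), against 0.902% of Neutrophil-like cells. T cell markers did not come with it in cluster 0: Cd3d and Cd3e lay above zero in 0% of its fl/fl cells, and none of its 119 Il7r cells held 3 or more T cell markers. Tcf7, Lef1 and Dapl1 were each found in 0 of 345 cells there, which allows a share of up to 0.870%. The cells with Il7r also had more genes above zero, a median of 187 against 146.5 in cells of the same cluster without it, and in macrophage cluster 17 a median of 296.5 against 127. Cluster 0 consisted almost wholly of cells with shared barcodes, and of its 20 fl/fl cells without one 4 had Il7r. Of 320 barcodes with both cells in that cluster, the fl/fl cell had Il7r for 115, and 34.8% of their cKO partners lay at least 1 above the zero level, against 4.39% of the partners of the other 205. Il7r averaged 0.27 ± 1.05 in the cKO cells of cluster 0 and 0.44 ± 1.53 in its fl/fl cells, a difference of -0.17, or -0.30 when a low quantile was subtracted in both libraries, beside 3.7% of all genes lower and 3.45% higher by at least 0.1 there. Only 2 cKO cells of cluster 0 had no shared barcode, so no difference without shared barcodes was computed. In DC-like cells, where 9.4% of all genes were lower and 8.2% higher, Il7r averaged -0.12 ± 0.69 in 136 cKO and -0.06 ± 0.80 in 225 fl/fl cells, a difference of -0.06.

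Within the T cells the 5 genes divided into a group of 4 that was found most often outside the Effector and Regulatory sub-clusters, and Izumo1r. The latter was found most often in the Regulatory T cell-like sub-cluster, though not only in Foxp3-led cells. T cell-like cells were clustered again without the 5 genes into 6 sub-clusters. Sub-cluster 3 was Naive T cell-like, led by Igfbp4, Txk, Rflnb and Actn1, with 207 cKO and 121 fl/fl cells. Sub-cluster 1 was led by Cd8b1, Ccr9, Ccr7 and Themis, with 150 cKO and 83 fl/fl cells, and stayed unnamed, although Cd8b1 was found in 77.1% and Ccr7 in 45.8% of its fl/fl cells. Sub-cluster 0 held Trdc and Tcrg-C4 and was Innate lymphoid or gamma delta T cell-like, called gamma delta-like here, with 44 cKO and 68 fl/fl cells. Sub-cluster 5 was Regulatory T cell-like by its markers, led by Cd4, Tnfrsf4, Icos and Ctla4, with 166 cKO and 122 fl/fl cells, but Foxp3 was found in only 10.7% of its fl/fl cells. Sub-cluster 2 was Effector CD8 T cell-like, with Gzmb in 43.8% of its fl/fl cells, and held 155 cKO and 178 fl/fl cells. Sub-cluster 4, led by Cd40lg, had 33 cKO and 19 fl/fl cells, and Tcf7, Lef1 and Il7r were each found in 13 of those 19, Dapl1 in 2 and Izumo1r in 0, which allows a share of up to 15.8%.

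Tcf7, which maintains the naive and memory state, was found in 66.9% of fl/fl cells of the Naive T cell-like sub-cluster (57.8% to 75.2%) and in 57.8% of sub-cluster 1 (46.5% to 68.6%). It was found in 44.1% of the gamma delta-like cells (32.1% to 56.7%), in 17.2% of Regulatory T cell-like cells (11.0% to 25.1%) and in 4.49% of Effector CD8 T cell-like cells (1.96% to 8.66%). The top 2 of these shares had overlapping intervals, and the Regulatory and Effector intervals lay below them and apart from each other. Lef1, whose product is the relative of TCF-1, followed nearly the same order, with 68.6% and 68.7% in the Naive T cell-like sub-cluster and sub-cluster 1, 32.4% in gamma delta-like cells, 9.02% in Regulatory and 5.62% in Effector cells. Unlike for Tcf7, the last 2 intervals of Lef1 overlapped (4.59% to 15.6% and 2.73% to 10.1%).

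Il7r, the interleukin-7 receptor chain, was spread more evenly. It was found in 52.9% of Naive T cell-like cells (43.6% to 62.0%), 48.5% of gamma delta-like cells (36.2% to 61.0%) and 44.6% of sub-cluster 1 (33.7% to 55.9%), 3 shares with overlapping intervals. It was found in 21.3% of Regulatory T cell-like cells (14.4% to 29.6%) and in 8.43% of Effector CD8 T cell-like cells (4.79% to 13.5%). A finer sub-clustering of the T cell-like cells gave a Regulatory T cell-like group led by Ikzf2, Il2ra and Foxp3, with Il7r in 42.9% of 49 fl/fl cells, and an unnamed group led by Cd4, Cxcr6 and Lag3, with Il7r in 8.45% of 71.

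Dapl1 was found mainly in 2 sub-clusters. It was found in 43.4% of the Cd8b1-led sub-cluster 1 (32.5% to 54.7%) and in 31.4% of Naive T cell-like cells (23.3% to 40.5%). It was found in 2.94% of gamma delta-like and 2.46% of Regulatory T cell-like cells and in 0 of 178 Effector CD8 T cell-like cells, which allows a share of up to 1.69%. All 81 T cell-like cells with Dapl1 were in cluster 18, and 0 of 254 cells in cluster 16 had it, which allows a share of up to 1.18%.

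Izumo1r, the folate receptor gene, had another order. It was found in 34.4% of Regulatory T cell-like cells (26.1% to 43.6%), 19.1% of Effector CD8 T cell-like cells (13.6% to 25.7%) and 14.9% of Naive T cell-like cells (9.06% to 22.5%), the last 2 with overlapping intervals. It was rare in sub-cluster 1 (3.61%) and in gamma delta-like cells (1.47%). In the finer sub-clusters it was found in 36.7% of the Foxp3-led cells and in 36.6% of the Cd4, Cxcr6 and Lag3-led cells, so the shares were close to each other. Foxp3 itself was found in 24.5% of the first group and 1.41% of the second, so Izumo1r did not follow Foxp3 over these 2 groups. Cluster 8, led by the cell cycle genes Stmn1, Pclaf and Top2a, of which 42.5% of fl/fl cells held at least 3 T cell markers, had Izumo1r in 8.82%, Lef1 in 9.63%, Il7r in 8.82%, Tcf7 in 5.35% and Dapl1 in 1.60% of its fl/fl cells.

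**Figure D2:**
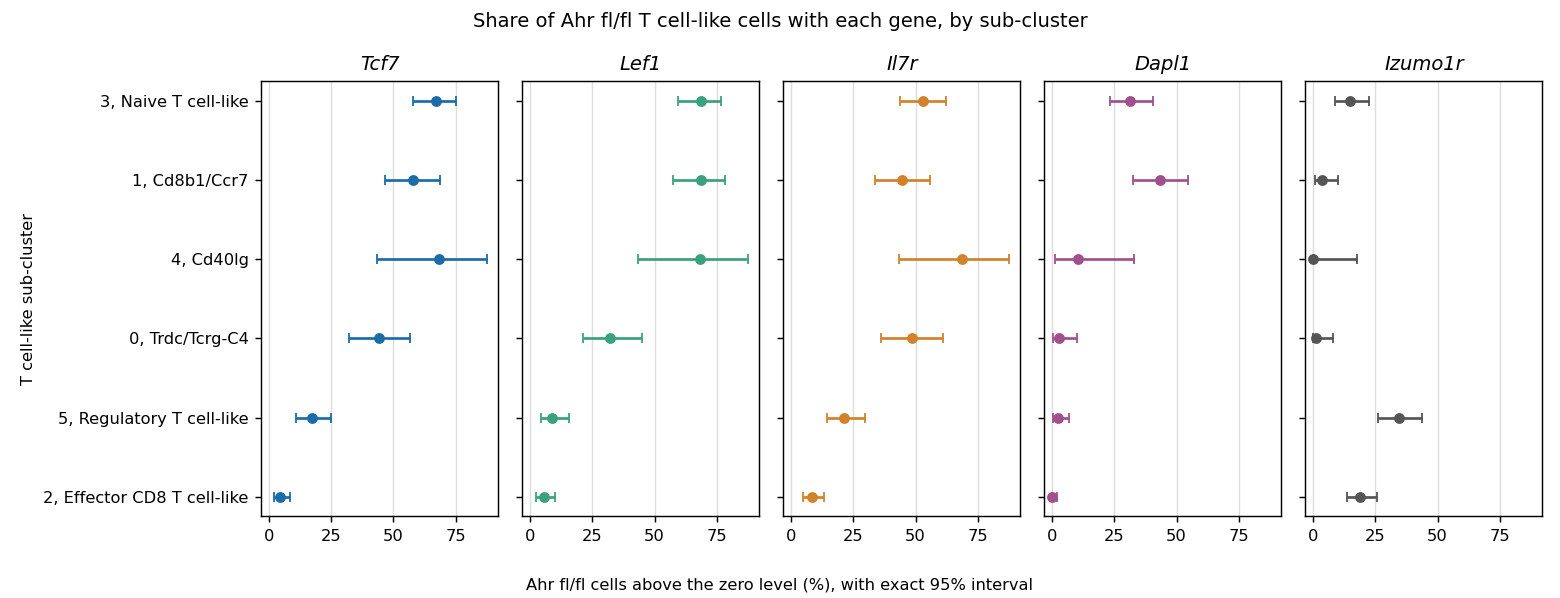
Share of Ahr fl/fl T cell-like cells above the zero level of each gene (x axis, percent) in 6 sub-clusters (y axis), with points for the share and bars for the exact 95% interval. Tcf7 and Lef1 run from 66.9% and 68.6% in Naive T cell-like cells down to 4.49% and 5.62% in Effector CD8 T cell-like cells, while Izumo1r is highest at 34.4% in Regulatory T cell-like cells.

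The sub-clusters differed in depth, with a median of 86 genes above zero in Naive T cell-like cells and 120 in Effector CD8 T cell-like cells. Of these 2 sub-clusters the one with more Tcf7 and Lef1 was the shallower. Sub-clusters 1 and 4, which also had high shares of both genes, had medians of 112 and 120. Among cells with 80 to 120 genes above zero, a window chosen after seeing the data, Tcf7 was found in 48 of 60 Naive T cell-like cells, 10 of 32 Regulatory T cell-like cells and 2 of 28 Effector CD8 T cell-like cells. For Lef1 these shares were 81.7%, 9.38% and 3.57%, or 49, 3 and 1 cells. For Izumo1r they were 23.3%, 40.6% and 14.3%, with overlapping intervals. The order of Tcf7 and Lef1 over these 3 sub-clusters was the same at matched numbers of genes, while Izumo1r was here more frequent in Naive T cell-like than in Effector CD8 T cell-like cells.

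Tcf7, Lef1, Il7r and Dapl1 were found together in single cells. Of the 591 fl/fl T cell-like cells 36.7% had none of the 5 genes, 23.9% had 1, 118 cells had 2, 13.0% had 3, 5.75% had 4 and 0.677% had all 5. Lef1 was found in 63.2% of the 201 cells with Tcf7 (56.1% to 69.9%) and in 17.7% of the 390 cells without it (14.0% to 21.8%). For Il7r these shares were 55.2% and 19.7%, and for Dapl1 27.9% and 6.41%. Izumo1r was not more frequent with Tcf7 over all T cell-like cells, with 12.9% of Tcf7 cells (8.63% to 18.4%) and 18.5% of cells without Tcf7 (14.7% to 22.7%), and these intervals overlapped. The cells with Tcf7 had a median of 108 genes above zero and those without it 92, so depth moved with the pairs, and its part was not tested.

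Within sub-clusters the pairing differed from 1 to another. Within the Naive T cell-like sub-cluster Lef1 was found in 75.3% of 81 Tcf7 cells (64.5% to 84.2%) and in 55.0% of 40 cells without Tcf7 (38.5% to 70.7%), and Dapl1 in 30.9% and 32.5%. In sub-cluster 1 Lef1 was found in 87.5% of 48 Tcf7 cells (74.8% to 95.3%) and 42.9% of 35 others (26.3% to 60.6%), and the intervals did not overlap, but the Tcf7 cells there had a median of 136.5 genes above zero and the others 80. In Regulatory T cell-like cells Tcf7 came with Il7r and not with Lef1: Il7r was found in 47.6% of 21 Tcf7 cells (25.7% to 70.2%) and in 15.8% of 101 others (9.33% to 24.4%), and Lef1 in 9.52% and 8.91%. The finer Foxp3-led group had Il7r more often, and a higher fl/fl mean of Tcf7, than the Cd4, Cxcr6 and Lag3-led group. The part of such a mixture in this pairing was not tested. Izumo1r was found in 42.9% of the Tcf7 cells of the Regulatory T cell-like sub-cluster (21.8% to 66.0%) and 32.7% of the others (23.7% to 42.7%). In the Naive T cell-like sub-cluster it was found in 13 of 81 Tcf7 cells and 5 of 40 others. The intervals overlapped in both, so the lower share with Tcf7 over all T cell-like cells was not seen within these sub-clusters.

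**Figure D3:**
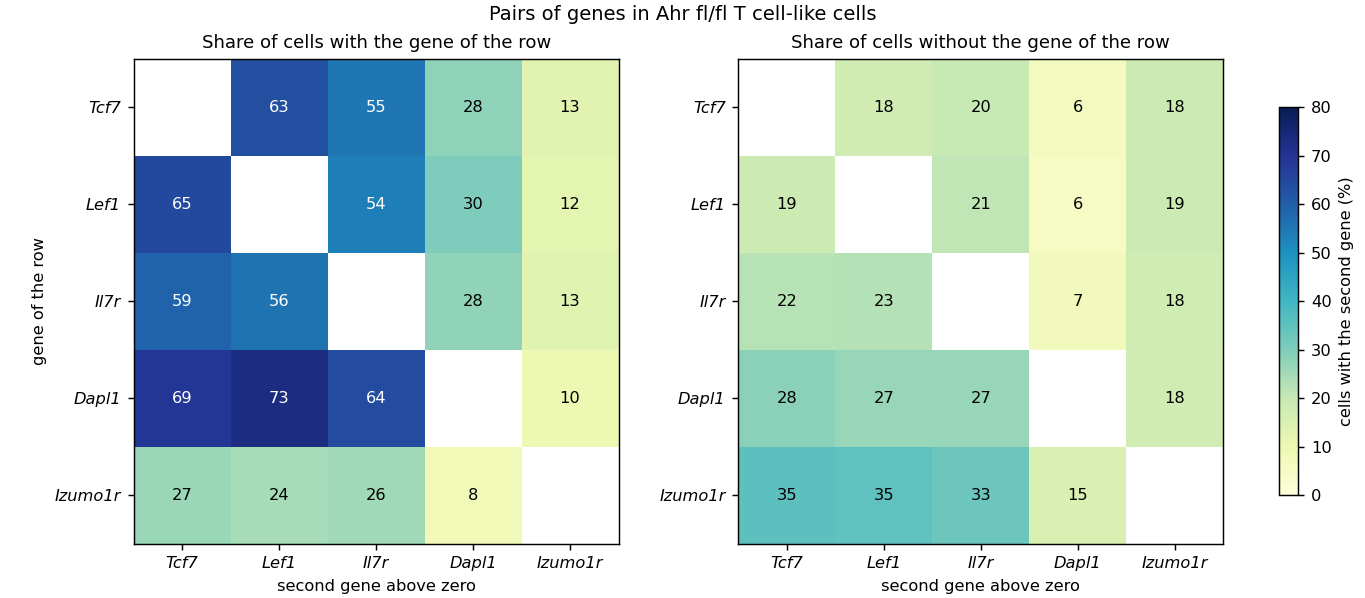
Percentage of Ahr fl/fl T cell-like cells above zero for a second gene (columns) among cells with the gene of the row (left) and without it (right), with colour and printed number for the percentage. Among Tcf7, Lef1, Il7r and Dapl1 the left panel is higher in every square, as with Lef1 at 63.2% with Tcf7 against 17.7% without it, while Izumo1r stands at 12.9% against 18.5%.

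The genes most like each member were looked up by correlation of fl/fl values, which share library and depth and are given as descriptions. Over the means of the 21 clusters with at least 20 fl/fl cells, Tcf7 and Lef1 had r = 0.990 with each other, and Izumo1r had r = 0.456 with Tcf7. Cluster 18 alone held 60.7% of the fl/fl cells with Tcf7, 58.1% of those with Lef1 and 86.2% of those with Dapl1. A correlation over cluster means can therefore rest largely on 1 cluster. The 3 other genes with the highest r for Tcf7, Lef1, Il7r and Dapl1 were in each case Cd163l1, a gene of gamma delta T cells, 1700062C10Rik and Espn, with r from 0.812 for Il7r and Espn to 0.995 for Dapl1 and Cd163l1. For Izumo1r they were Ctla4, an inhibitory receptor of activated and regulatory T cells (r = 0.983), and the CD3 chain genes Cd3e (0.978) and Cd3d (0.974). Over the 591 fl/fl T cell-like cells correlations were weak, the highest being Txk, a Tec-family kinase, with 0.392 for Tcf7 and 0.373 for Lef1. The next were Rflnb and Igfbp4 for Tcf7 (0.356 and 0.255) and Igfbp4 and Atp1b1 for Lef1 (0.228 and 0.220). For Il7r they were Tmem176a, Tmem176b and Rflnb (0.270, 0.219 and 0.219). For Dapl1 they were 2210407C18Rik, Sgms2 and the lymph node homing receptor gene Ccr7 (0.259, 0.254 and 0.239). For Izumo1r they were Angptl2, Hist1h2ac and the transcription factor gene Maf (0.241, 0.233 and 0.208).

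Between the libraries, 4 of the 5 genes had higher deposited values in T cell-like cells of the cKO library. None was higher by 0.1 once a low quantile had been subtracted, in the ways that could be applied to it. For Tcf7 and Lef1 this subtraction also took away values of cells that had the gene. Lef1 averaged 1.38 ± 1.98 in 755 cKO cells and 0.83 ± 1.99 in 591 fl/fl cells (SD over cells), a scaled difference of 0.55. Tcf7 averaged 1.30 ± 2.04 in cKO cells and 0.95 ± 2.09 in fl/fl cells, a difference of 0.36. Dapl1 averaged 0.90 ± 2.33 in cKO cells and 0.59 ± 2.17 in fl/fl cells, a difference of 0.32. These 3 genes had their highest shares in the Naive T cell-like sub-cluster and in sub-clusters 1 and 4. Izumo1r averaged 0.87 ± 2.01 in cKO cells and 0.56 ± 2.00 in fl/fl cells, a difference of 0.31. Il7r averaged 0.70 ± 1.66 in cKO cells and 0.73 ± 2.06 in fl/fl cells, a difference of -0.03. The share of cells at least 1 above the zero level was 50.5% in cKO and 30.3% in fl/fl cells for Lef1, 43.2% in cKO and 32.8% in fl/fl cells for Tcf7, 26.1% in cKO and 13.7% in fl/fl cells for Dapl1, and 22.6% in cKO and 16.4% in fl/fl cells for Izumo1r. For Il7r this share was 31.7% in cKO and 24.9% in fl/fl cells, higher in the cKO library although its mean was not. The cutoff for these shares was set from the fl/fl zero level, and many cKO values lay off that level. The shares therefore do not compare the libraries alike. Each difference in means is smaller than the SD over cells, and with 1 library per genotype it has no error between animals. Of all 2000 genes, 2.65% were higher in cKO T cell-like cells by at least 0.1 and 3.7% were lower by at least 0.1, with a median difference of 0.

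The sub-clusters were not present in the same shares in the libraries. Cluster 18, which held 60.7% of all fl/fl cells with Tcf7, 58.1% of those with Lef1, 34.4% of those with Il7r and 86.2% of those with Dapl1, held 517 of the 755 cKO and 337 of the 591 fl/fl T cell-like cells, and cluster 16 held 238 cKO and 254 fl/fl cells. Naive T cell-like cells made up 27.4% of cKO and 20.5% of fl/fl T cell-like cells, and Effector CD8 T cell-like cells 20.5% of cKO and 30.1% of fl/fl ones. When each sub-cluster was given its fl/fl weight, the differences were 0.14 for Tcf7, 0.25 for Lef1, -0.08 for Il7r, 0.02 for Dapl1 and 0.28 for Izumo1r.

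Many cKO values lay off the fl/fl zero level, on either side of it. In the Naive T cell-like sub-cluster the 30th percentile of Lef1 lay 1.72 above the fl/fl zero level in cKO cells and at the zero level in fl/fl cells, and for Tcf7 it lay 0.92 above it in cKO cells and at it in fl/fl cells. In the Regulatory T cell-like sub-cluster the 30th percentile of Il7r differed from the fl/fl zero level by -0.19 in cKO cells and that of Dapl1 by -0.12, both below it, and lay at it in fl/fl cells. Over the whole cKO library 36.6% of cells lay below the Il7r zero level. Whether these shifts came from the processing or from the cells was not tested. A low quantile over neighbouring cells was subtracted in 4 ways. The first 2 subtracted it in the cKO cells only, and could be applied in the first form to Dapl1 (0.03) and Izumo1r (0.00) and in the second form to all 5 genes, giving -0.13 for Tcf7, -0.35 for Lef1, -0.08 for Il7r, -0.13 for Dapl1 and -0.11 for Izumo1r. Applied to fl/fl cells alone, where there is no second library to differ from, the first form gave -0.42 for Tcf7, -0.40 for Lef1 and -0.08 for Il7r, and the second gave -0.17 for Tcf7 and -0.22 for Lef1, while for Dapl1 and Izumo1r both were within 0.01 of 0. In Naive T cell-like cells of the fl/fl library the first form gave -1.22 for Tcf7 and -1.53 for Lef1, so for these genes the subtraction also took away values of cells that had the gene. The other 2 ways, devised after those values had been seen, made the same subtraction in both libraries and gave 0.07 and 0.04 for Tcf7, -0.09 and -0.13 for Lef1, -0.06 and -0.08 for Il7r, 0.03 and -0.13 for Dapl1, and 0.00 and -0.11 for Izumo1r. By the first of these 2 ways none of the 5 genes was higher or lower by at least 0.1, beside 4.15% and 2.35% of all 2000 genes, and by the second Lef1, Dapl1 and Izumo1r were lower, beside 4.7% of all genes, and none was higher, beside 0.65%. Where they could be applied, none of the 4 ways left a gene higher by 0.1 over all T cell-like cells. For Izumo1r by both forms, and for Dapl1 by the second, the subtraction took nothing from the fl/fl mean. Subtraction in both libraries then repeats the value of cKO cells alone and is not a separate check. The first form in cKO cells alone gave no value for Tcf7, Lef1 and Il7r.

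**Figure D4:**
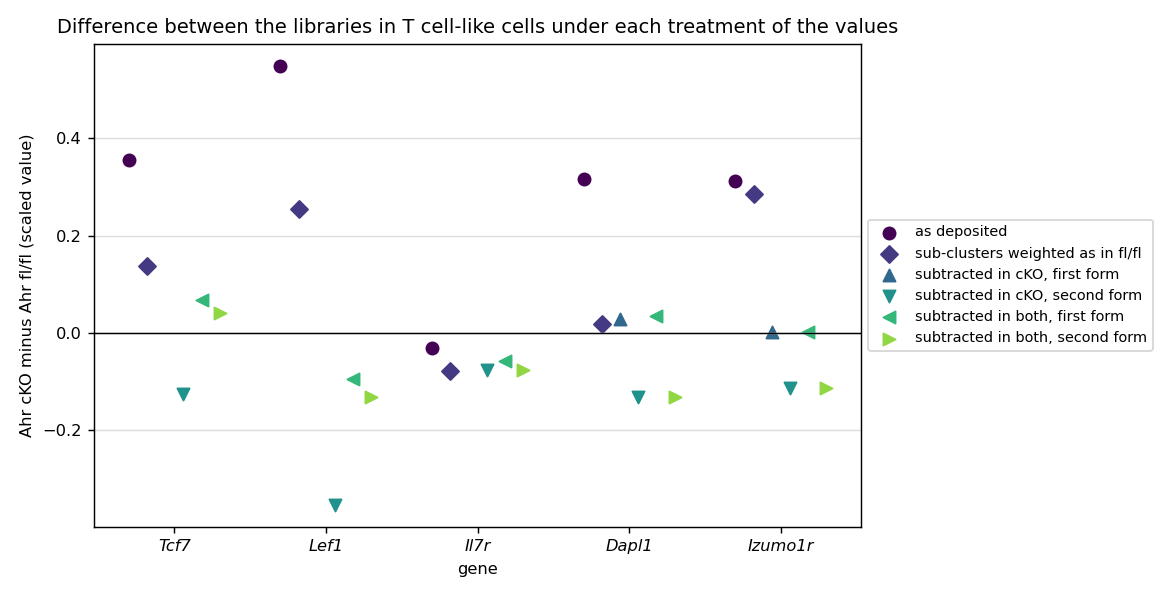
Difference between the libraries, Ahr cKO minus Ahr fl/fl (y axis, scaled value), in T cell-like cells for each gene (x axis), as deposited, with sub-clusters weighted as in the fl/fl library, and with a local quantile subtracted in the cKO cells only or in both libraries. The deposited differences of 0.31 to 0.55 for 4 genes drop to between -0.35 and 0.07 once a quantile is subtracted. There is no marker for the first form in cKO cells only for Tcf7, Lef1 and Il7r, where it could not be used.

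In the sub-clusters the differences between the libraries varied by gene. In Regulatory T cell-like cells Tcf7 averaged 0.92 ± 2.05 in 166 cKO cells and 0.23 ± 1.20 in 122 fl/fl cells, a difference of 0.68 that was 0.40 and 0.36 after the subtraction in both libraries. Lef1 averaged 0.40 ± 1.31 in those cKO cells and -0.02 ± 0.95 in the fl/fl cells, a difference of 0.42, or 0.29 and 0.21 after it. Il7r averaged 0.55 ± 1.91 in the cKO cells and 0.35 ± 1.57 in the fl/fl cells, a difference of 0.20, or 0.30 and 0.28 after it. These 3 were higher in the cKO library as deposited and after both subtractions, beside 7.9% of all genes that were higher and 6.7% that were lower by at least 0.1 in that sub-cluster as deposited. Shares of all genes after the subtraction were computed only over all T cell-like cells. The values after it in single clusters and sub-clusters therefore have no such share beside them. Izumo1r, the gene found most often in that sub-cluster, averaged 2.10 ± 3.13 in cKO and 1.62 ± 3.09 in fl/fl cells, a difference of 0.48 as deposited and -0.12 and -0.13 after the subtractions. Tcf7 lay at least 1 above the zero level in 27.1% of the cKO and 16.4% of the fl/fl cells. The finer Foxp3-led group held 88 cKO and 49 fl/fl cells, and Tcf7 averaged 1.80 ± 2.36 in those cKO cells and 0.59 ± 1.59 in those fl/fl cells. In the Cd4, Cxcr6 and Lag3-led group of 83 cKO and 71 fl/fl cells it averaged 0.01 ± 0.94 in cKO and 0.00 ± 0.77 in fl/fl cells. The unequal numbers of cKO and fl/fl cells in these groups moved with the Tcf7 difference, and their part was not tested.

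In Naive T cell-like cells Il7r had a lower mean in the cKO library, with 1.06 ± 1.64 in 207 cKO cells and 1.57 ± 2.63 in 121 fl/fl cells, a difference of -0.51, or -0.54 and -0.62 after the subtraction in both libraries, beside 5% of all genes that were lower and 6.35% that were higher by at least 0.1 as deposited. The medians were close, 0.76 above the fl/fl zero level in cKO cells and 0.79 above it in fl/fl cells. The share of cells at least 1 above the zero level did not go with this mean, with 45.9% of cKO and 43.0% of fl/fl cells. Over all of cluster 18, Il7r averaged 1.04 ± 1.80 in cKO cells and 1.38 ± 2.47 in fl/fl cells, a difference of -0.34, or -0.43 and -0.45 after the subtraction, beside 4.3% of all genes lower and 4.35% higher as deposited. Lef1 in Naive T cell-like cells turned with the treatment, with 2.80 ± 2.07 in cKO and 2.51 ± 2.67 in fl/fl cells, a difference of 0.29 as deposited and -0.25 and -1.18 after it. Dapl1 turned too, with 1.74 ± 2.68 in cKO and 1.43 ± 2.96 in fl/fl cells, a difference of 0.31 as deposited and -0.27 and -0.39 after it. Tcf7 there averaged 2.36 ± 2.33 in cKO and 2.58 ± 2.78 in fl/fl cells, a difference of -0.22, or -0.32 and -0.75 after it. Its share at least 1 above the zero level was 67.6% in cKO and 66.9% in fl/fl cells, so it did not go with the lower mean either. Both shares used a cutoff set from the fl/fl zero level. The 30th percentile of these cKO cells lay 0.92 above that level for Tcf7 and 0.23 above it for Il7r. The shares therefore do not compare the libraries alike.

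In sub-cluster 1, where as deposited 5.5% of all genes were higher and 7.4% lower, Dapl1 averaged 2.19 ± 3.22 in 150 cKO and 2.34 ± 3.48 in 83 fl/fl cells, a difference of -0.15, or -0.98 and -0.76 after the subtraction. Lef1 there averaged 1.89 ± 1.70 in cKO and 1.55 ± 1.81 in fl/fl cells, a difference of 0.35 as deposited and -0.41 and -0.52 after it. In Effector CD8 T cell-like cells, where 8.85% of all genes were higher and 6.2% lower, only Izumo1r passed 0.1 as deposited, with 0.69 ± 1.57 in 155 cKO and 0.47 ± 1.70 in 178 fl/fl cells, a difference of 0.22, or 0.03 and -0.06 after the subtraction. Il7r there averaged -0.05 ± 0.79 in cKO and -0.14 ± 0.59 in fl/fl cells, a difference of 0.09 as deposited that passed 0.1 after the subtraction, with 0.17 and 0.12. In cluster 16, where 7.5% of all genes were higher and 4.9% lower, Izumo1r averaged 1.11 ± 1.99 in cKO and 0.78 ± 2.19 in fl/fl cells, a difference of 0.32 as deposited and -0.14 and -0.21 after the subtraction. Il7r in cluster 16 averaged -0.04 ± 0.97 in cKO and -0.12 ± 0.68 in fl/fl cells, a difference of 0.09 as deposited and 0.25 and 0.19 after it.

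**Figure D5:**
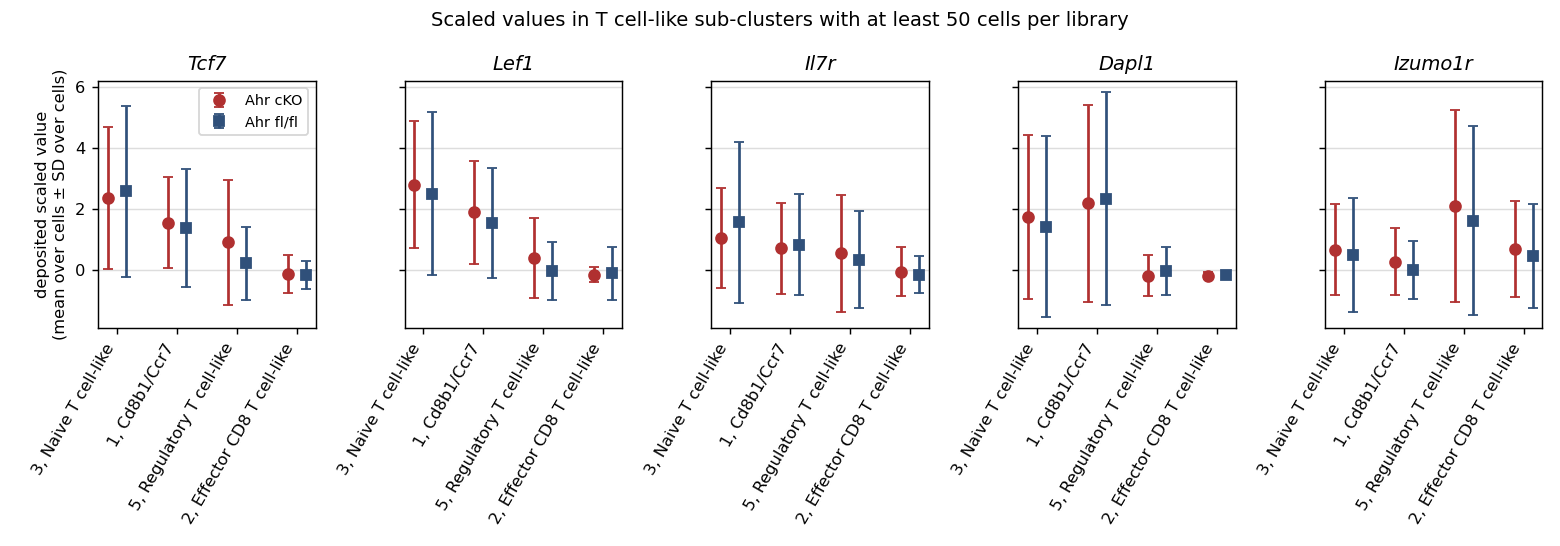
Deposited scaled values (y axis, mean over cells with the SD over cells) of each gene in the 4 sub-clusters with at least 50 cells per library, Ahr cKO as circles and Ahr fl/fl as squares beside them. Tcf7 in Regulatory T cell-like cells averages 0.92 in cKO and 0.23 in fl/fl cells, and Il7r in Naive T cell-like cells averages 1.06 in cKO and 1.57 in fl/fl cells, with SDs wider than these differences.

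In NK cell-like cells, which had Tcf7, Lef1 and Il7r in the shares given above, Il7r averaged 0.50 ± 1.49 in 140 cKO cells and 0.20 ± 1.24 in 165 fl/fl cells, a difference of 0.29, or 0.30 and 0.27 after the subtraction, beside 7.05% of all genes higher and 6.1% lower by at least 0.1. Lef1 there averaged 0.36 ± 1.00 in cKO and 0.12 ± 1.04 in fl/fl cells, a difference of 0.24 as deposited and 0.01 by both subtractions. The summed T cell markers of that cluster averaged 2.27 in cKO and 2.81 in fl/fl cells, and their part in the Il7r difference was not tested.

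Of a list of other naive and memory T cell genes, 10 of 23 were measured, and in T cell-like cells 6 were higher and 1 was lower in the cKO library by at least 0.1 as deposited, with a median difference of 0.17, beside 2.65% of all 2000 genes higher and 3.7% lower. Several of them also name the Naive T cell-like sub-cluster. After the subtraction in both libraries 3 were higher and 1 lower by the first form, beside 4.15% and 2.35% of all genes, and 2 were higher and 3 lower by the second, beside 0.65% and 4.7%. The costimulatory receptor gene Cd28 averaged 1.03 in cKO and 0.75 in fl/fl cells, a difference of 0.28 as deposited and -0.04 and -0.08 after it. Igfbp4 averaged 0.52 in cKO and 0.25 in fl/fl cells, a difference of 0.27, or 0.17 and 0.14 after it. Txk averaged 0.95 in cKO and 0.71 in fl/fl cells, a difference of 0.24, or 0.04 and -0.01 after it. The chemokine gene Xcl1, made by memory and effector CD8 T cells and NK cells, averaged 0.24 in cKO and 0.50 in fl/fl cells, a difference of -0.26, or -0.24 and -0.26 after it.

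Several effector and exhaustion genes lay lower in the cKO library, and many of them also name the Effector CD8 T cell-like sub-cluster. Of 19 listed 14 were measured, 0 were higher and 6 lower by at least 0.1 as deposited, with a median of -0.08, beside 2.65% of all genes higher and 3.7% lower. By each subtraction 0 were higher and 9 lower, beside 2.35% of all genes lower by the first form and 4.7% by the second. Pdcd1, which encodes the checkpoint receptor PD-1, averaged 0.63 in cKO and 0.82 in fl/fl cells, a difference of -0.19, or -0.20 and -0.24 after the subtraction. Nkg7, a gene of cytotoxic granules, averaged 0.87 in cKO and 1.06 in fl/fl cells, a difference of -0.19. Cxcr6 differed by -0.18 (0.87 in cKO, 1.05 in fl/fl cells) and the chemokine gene Ccl4 by -0.13 (0.27 in cKO, 0.40 in fl/fl cells). The smaller share of cluster 16 in the cKO T cells, given above, moved with this list, and its part was not tested.

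Of the regulatory and anergic T cell genes listed beside Izumo1r, 10 of 14 were measured, 0 were higher and 3 lower as deposited, with a median of -0.04, beside 2.65% of all genes higher and 3.7% lower. By the first form 1 was higher and 3 lower, beside 4.15% of all genes higher and 2.35% lower. By the second 0 were higher and 5 lower, beside 0.65% higher and 4.7% lower. Tnfrsf18 averaged 0.48 in cKO and 0.66 in fl/fl cells, Il2ra averaged 0.12 in cKO and 0.27 in fl/fl cells, and Rgs1 averaged 0.21 in cKO and 0.32 in fl/fl cells, with differences of -0.18, -0.16 and -0.11. After the subtraction Tnfrsf18 differed by 0.04 and 0.00, Il2ra by -0.04 and -0.12, and Rgs1 by -0.25 and -0.24. Foxp3, the factor that defines regulatory T cells, averaged 0.06 in cKO and 0.14 in fl/fl cells, a difference of -0.08 as deposited and 0.08 and -0.06 after it. Of the TCF/LEF partners and targets 6 of 14 were measured, 1 was higher and 0 were lower as deposited, with a median of 0.05, beside 2.65% and 3.7% of all genes. By the first form 0 were higher and 0 lower, beside 4.15% and 2.35%. By the second form 0 were higher and 1 lower, beside 0.65% and 4.7%. Myb averaged 0.17 in cKO and -0.03 in fl/fl cells, a difference of 0.19 as deposited and 0.03 and -0.03 after the subtraction. Myc, the beta-catenin gene Ctnnb1 and Tcf7l2 differed by 0.08, 0.07 and 0.02 as deposited, and Myc by -0.08 and -0.16 after the subtraction. Of the interleukin-7 receptor partners and signalling genes only Socs1 and Socs2, which restrain cytokine signalling, were measured of 14, with differences of -0.07 and -0.03 as deposited, and Socs1 by -0.08 and -0.12 after the subtraction, past 0.1 by the second form only.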

How the data were processed

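Both libraries were deposited as 1 table of scaled scores for 2000 genes and a table of UMAP coordinates, which are scores as well. The submitters' processing notes list the tools Seurat 3.1.4 and Cell Ranger 3.0.0 and the builds mm10 and GRCm38, with no role or order, and how the score was made is not given in the sources used here. The deposited scores ran from -25.9 to 10, and many cKO values lay off the zero level that fl/fl cells share, for which no source used here gives a step. The ending of a cell's name gave its library, per the labels. No columns of per-sample values were left unused.

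Cells were clustered on the 1995 other genes (30 principal components, 15 neighbours, Leiden resolution 1, 23 clusters) with Python 3.11.15, scanpy 1.11.5, igraph 0.11.9, scikit-learn 1.9.0, pandas 2.3.3, matplotlib 3.10.9, numpy 2.4.6 and scipy 1.17.1. Clusters and sub-clusters were named from marker lists where the best score was at least 0.5. The sub-cluster resolution of 0.5 was chosen after resolutions 0.5 and 1 had been seen. Possible doublets, cells with markers of 2 families of classes, were 219 cKO cells (4.78%) and 318 fl/fl cells (6.12%), counts that do not compare because many cKO values lay off the fl/fl zero level, and they were kept except in 1 alternative.

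A difference is the cKO mean minus the fl/fl mean where both libraries had at least 50 cells, and 0.1 counted as higher or lower. The subtracted quantile was, in the first form, the 0.3 quantile over 30 neighbours in the same cluster, used in cKO cells alone where fewer than 40% of the fl/fl cells in each cluster had the gene, and in the second form a quantile of 0.5 times the share of fl/fl cells at zero over 50 neighbours. The 5 members are always named. The 3 most correlated genes per member, and up to 4 genes per list with the largest absolute difference, were named by rule. Leading genes of clusters are named to describe them. The members and lists were chosen with earlier results of these data known.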

Additional observations from a re-analysis of the deposited data

Results flagged for a closer look

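For 3 genes the means of the libraries differed in opposite directions in the Regulatory T cell-like and Naive T cell-like sub-clusters, as deposited and cKO minus fl/fl. Tcf7 differed by 0.68 in the Regulatory T cell-like and by -0.22 in the Naive T cell-like sub-cluster. Il7r differed by 0.20 in the Regulatory T cell-like and by -0.51 in the Naive T cell-like sub-cluster. Both genes kept these directions when the quantile was subtracted in both libraries. In the Naive T cell-like sub-cluster the median of Il7r lay 0.76 above the fl/fl zero level in cKO and 0.79 above it in fl/fl cells. That of Tcf7 lay 2.02 above it in cKO and 2.42 above it in fl/fl cells. The share of cells at least 1 above zero there was not lower in the cKO library. It was 67.6% of cKO and 66.9% of fl/fl cells for Tcf7, and 45.9% of cKO and 43.0% of fl/fl cells for Il7r. That cutoff was set from the fl/fl zero level, off which many cKO values lay, so these shares do not compare the libraries alike. Dapl1 differed by -0.15 in the Regulatory T cell-like and by 0.31 in the Naive T cell-like sub-cluster, and its difference in the Naive T cell-like sub-cluster turned to -0.27 and -0.39 with that subtraction. With 1 library per genotype, the difference between the sub-clusters was not tested.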

How the results depend on the processing

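No paired analysis was possible because the groups compared share fewer than 2 replicate numbers (1 library each). The largest dependence was on the subtraction. The difference in T cell-like cells, cKO minus fl/fl, was -0.13 for Tcf7, -0.35 for Lef1, -0.13 for Dapl1 and -0.11 for Izumo1r with the second form in cKO cells, and 0.028 for Dapl1 and 0.00073 for Izumo1r with the first. With the same subtraction in both libraries, added after seeing the data, the first and second form gave 0.067 and 0.041 for Tcf7, -0.095 and -0.13 for Lef1, 0.034 and -0.13 for Dapl1, and 0.00073 and -0.11 for Izumo1r. Sub-cluster weights of the fl/fl library gave 0.14 for Tcf7, 0.25 for Lef1 and 0.017 for Dapl1. Il7r turned to 0.11 with 15 components, 0.14 with clusters from UMAP, 0.095 with all 2000 genes clustered and 0.11 at resolution 2, so its direction over all T cell-like cells depended on which cells were in the class, and Tcf7 differed by 0.47 with 15 components. The share of fl/fl T cell-like cells above zero was, with 15 components, 27.4% for Tcf7, 28.8% for Lef1, 28.0% for Il7r and 10.4% for Dapl1. At resolution 2 it was 28.8% for Tcf7, 29.3% for Lef1 and 10.9% for Dapl1, with all 2000 genes clustered 28.3%, 29.3% and 10.7%, and with UMAP clusters 27.9% for Tcf7 and 27.6% for Il7r. Il7r was at least 1 above zero in 24.9%. The highest minus the lowest share over sub-clusters was 48.6 percentage points for Tcf7, 45.6 for Lef1, 24.0 for Dapl1 and 11.7 for Izumo1r at sub-cluster resolution 0.25, and 76.7 for Tcf7 and 59.6 for Il7r at resolution 1. Leaving out possible doublets or shared barcodes moved no share or difference of T cell-like cells beyond its spread. The cause of these changes was not tested. Depth in molecules is unknown, so a gene not found in a cell may have been missed.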
